A study of Mus musculus with 44 samples.

Results

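Short RING1B peaks that lay far from any H3K27me3 region in mouse haematopoietic progenitor cells are described here. They were chosen from the deposited RING1B peak list by a width of at most 2000 bp and by a gap of more than 10000 bp to the nearest region of the deposited H3K27me3 list on the same chromosome. Of the 24987 RING1B peaks, 4311 met both limits (17.3%, interval 16.8 to 17.7). Width and gap to H3K27me3 chose these peaks, so both are given as descriptions. Intervals beside shares are exact 95% binomial (Clopper-Pearson) intervals and those beside medians are order-statistic intervals at the same level; both cover counting error over peaks only.

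The RING1B list stands for 2 chromatin immunoprecipitation libraries of Pcgf1 fl/fl IdHP cells, and the H3K27me3 list for 2 libraries of the same genotype. The PCGF1 list stands for 2 libraries of Pcgf1 -/- IdHP cells given FLAG-PCGF1, precipitated through the FLAG tag. IdHP cells are cultured haematopoietic progenitors with a bone marrow origin and the strain background B6CBAF1/J; the cells behind all 3 lists were grown over TSt4 stroma in medium with SCF, Flt3L and IL7 and used at passages 15 to 18. The PCGF1 list therefore comes from cells in which a tagged protein replaced the deleted one, and an overlap with RING1B sets sites of different cell populations side by side. Each list covers its 2 libraries together, so no value has a replicate error, the read depth is unknown, and peaks are not replicates of the cells; neighbouring peaks are not independent of each other. The series has 44 libraries in 23 groups; the other 38 were not analysed here. Positions are read as mm9. Genes were not assigned and no peak sequence is printed, because the gene and sequence tables at hand are of GRCm38.p6.

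RING1B is the E3 ubiquitin ligase subunit of Polycomb repressive complex 1, which places ubiquitin on lysine 119 of histone H2A. Canonical forms of the complex are drawn to H3K27me3, the mark written by Polycomb repressive complex 2, through their CBX subunits. Variant forms lack CBX and hold RYBP or YAF2; the form defined by PCGF1 also carries KDM2B, which binds unmethylated CpG islands. Variant forms do not need H3K27me3 to bind chromatin, and PCGF1 is the one of their defining subunits mapped in these lists.

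Most RING1B peaks far from the mark were short. The list held 4577 RING1B peaks with a gap above 10000 bp, of which 4311 (94.2%, 93.5 to 94.8) were at most 2000 bp wide and 266 were wider. Among all RING1B peaks, 19.2% (18.7 to 19.7) were wider than 2000 bp. The short far peaks together covered 2.74 Mb of the 39.7 Mb of the RING1B list. Short peaks elsewhere were more numerous: 8595 lay off H3K27me3 but at most 10000 bp from it, called flanking here, and 7285 lay on it.

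The short far peaks had a median width of 517 bp (interval 504 to 531; interquartile range 311 to 857). The narrowest was 165 bp, the lower limit of the whole RING1B list, and the widest 1995 bp. By size, 650 (15.1%) were at most 250 bp, 1427 (33.1%) between 250 and 500 bp, 1456 (33.8%) between 500 and 1000 bp and 778 (18.0%) above 1000 bp. Under the same width limit, flanking peaks had a median of 567 bp and peaks on H3K27me3 one of 691 bp, so the far class was the narrowest of the short classes. Its widths filled the range up to the limit without a break: just inside stood peaks of 1995, 1992 and 1989 bp (folds 3.19, 3.43 and 4.44), and the first far peaks beyond it measured 2014, 2019 and 2025 bp (folds 4.16, 3.87 and 4.5). At the other limit, the nearest members lay 10001, 10003 and 10012 bp from H3K27me3, at folds of 3.83, 2.83 and 3.04, and the nearest short peaks left out lay 9996, 9995 and 9994 bp from it, at folds of 3.86, 3.23 and 3.5. Both limits cut through a continuous range of values.

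The deposited fold enrichment, a ratio over the caller's background, had a median of 3.32 (3.30 to 3.35) in the short far peaks. It was 3.18 in flanking peaks, 3.09 in short peaks on H3K27me3 and 3.22 in the whole RING1B list. The order far, flanking, on H3K27me3 was the same within each of 4 width ranges. Up to 250 bp the medians were 3.22 (3.18 to 3.25), 3.20 (3.17 to 3.22) and 3.12 (3.10 to 3.14), and the first 2 intervals overlapped. Above 1000 bp they were 3.5 (3.46 to 3.54), 3.30 (3.28 to 3.32) and 3.17 (3.16 to 3.18), and no intervals overlapped. The share of peaks with a deposited -log10 q of at least 5 followed the same order: 620 of the 4311 short far peaks reached it (14.4%, 13.3 to 15.5), against 7.50% (6.96 to 8.08) of flanking peaks, 1.81% (1.52 to 2.15) of short peaks on H3K27me3 and 9.96% of all RING1B peaks. Counted at the width make-up of the far peaks, the shares of the flanking and H3K27me3-bearing short peaks were 7.24% and 1.75%. Peaks wider than 2000 bp stood above the short far peaks, with a share of 22.7% (21.6 to 24.0) and a median fold of 3.56. For the wide peaks that were also far from H3K27me3 these values were 30.1% (24.6 to 36.0) and 3.70. Fold and -log10 q come from the same list as the width that chose the peaks and from the same libraries, so these values are descriptions with no test.

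Among the short far peaks, wider ones had higher folds, though loosely. The rank correlation of width with fold was 0.23 over 4311 peaks and that of gap to H3K27me3 with fold was 0.06; all points share the same pair of libraries. The median fold went from 3.28 in the 1079 peaks nearest to H3K27me3 (gaps up to 13906 bp) to 3.38 in the 1078 farthest (gaps of 30096 to 204995 bp). Their median widths were 565 and 496 bp. Fold and -log10 q ranked these peaks in nearly the same order, with a rank correlation of 0.96.

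**Figure D1:**
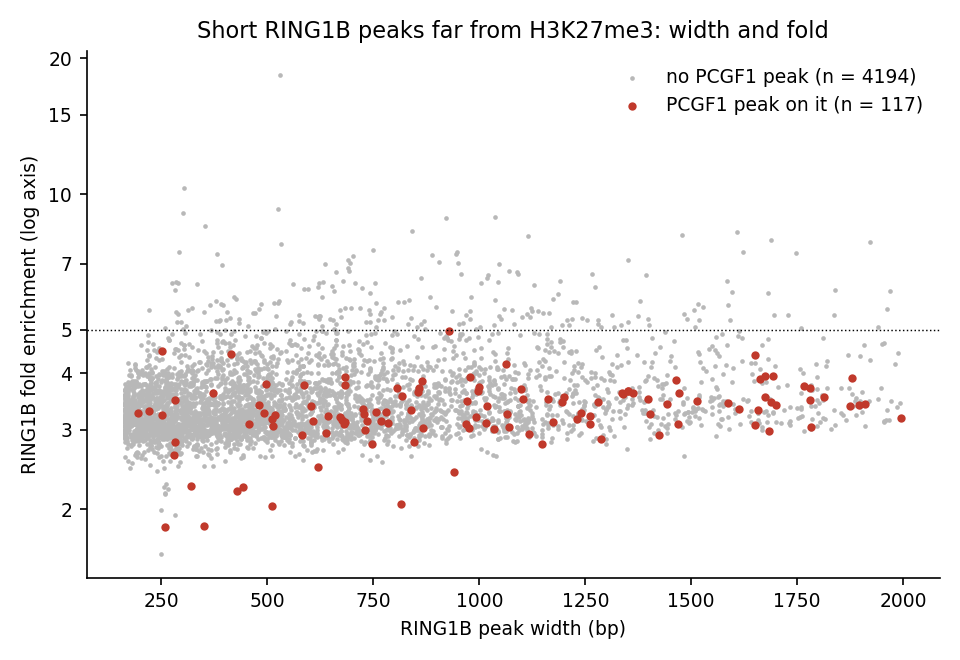
Each point is one of the 4311 short RING1B peaks far from H3K27me3, with its width in bp on the horizontal axis and its deposited RING1B fold on a logarithmic vertical axis; red points hold a PCGF1 peak (117) and grey points do not (4194). No red point lies above the dotted line at a fold of 5, and red points are frequent among the few peaks under a fold of 2.5.

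Few of the short far peaks held a PCGF1 peak. Of the 4311, 117 (2.71%, 2.25 to 3.24) shared at least 1 bp with a PCGF1 peak, against 5.85% of all RING1B peaks. The share was 4.0% (3.60 to 4.44) in flanking peaks, 3.5% (3.09 to 3.95) in short peaks on H3K27me3 and 15.5% (14.5 to 16.6) in RING1B peaks wider than 2000 bp. Among the 266 wider RING1B peaks that were also far from H3K27me3, 52 held PCGF1 (19.5%, 15.0 to 24.8). Extending the search to 1000 bp around each short far peak added 41 peaks and brought the count to 158 (3.67%). Within 1000 bp the share was 4.94% for flanking peaks and 6.61% for all RING1B peaks. The median distance to the nearest PCGF1 peak was 273754 bp, against 255293 bp for flanking peaks and 236067 bp over the whole RING1B list. A PCGF1 peak lay within 100000 bp of 1105 short far peaks (25.6%), against 28.7% of flanking peaks and 31.8% of all RING1B peaks.

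Wider short far peaks held PCGF1 more often, and so did wider flanking peaks. The PCGF1 share of the short far peaks was 0.308% (0.0373 to 1.11) up to 250 bp, with 2 of 650 peaks, and 1.12% (0.642 to 1.81) between 250 and 500 bp. It was 3.02% (2.20 to 4.04) between 500 and 1000 bp and 7.07% (5.37 to 9.10) above 1000 bp. Over the same 4 ranges it was 1.23, 1.64, 3.65 and 9.79% in flanking peaks and 0.668, 3.32, 2.80 and 5.41% in short peaks on H3K27me3. The far peaks were thus lower than flanking peaks in each range, but their intervals overlapped in all 4. Above 1000 bp the interval of flanking peaks was 8.46 to 11.3. The count per base takes the greater length of wider peaks into account only in part, since any PCGF1 peak sharing 1 bp was counted. Per Mb of RING1B sequence the short far peaks held 46.4 PCGF1 peaks, near the 48.7 of the whole RING1B list. Flanking peaks held 64.9 per Mb, short peaks on H3K27me3 48.4 and the 266 wider far peaks 96.5. At the width make-up of the short far peaks, the PCGF1 share of flanking peaks was 3.73% and that of short peaks on H3K27me3 3.12%, so the far peaks differed from flanking peaks by -1.02 percentage points and from peaks on the mark by -0.407. With a gap limit of 5000 bp in place of 10000 bp these differences were -0.0959 and 0.285 points, so both moved with the limit.

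**Figure D2:**
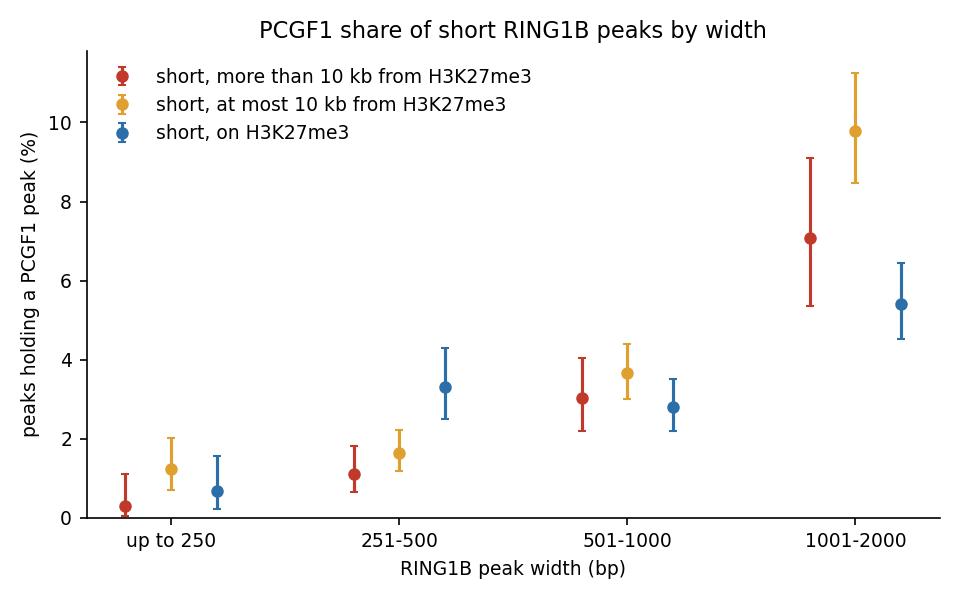
Share of short RING1B peaks that hold a PCGF1 peak, in percent, by width range in bp, for peaks more than 10 kb from H3K27me3 (red), peaks at most 10 kb from it (orange) and peaks on it (blue); bars are exact 95% binomial intervals. The red points go from 0.308% to 7.07% across the 4 ranges.

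The short far peaks of highest fold carried no PCGF1 peak, though some of high -log10 q did. A fold of at least 5 was reached by 212 of them (4.92%, 4.29 to 5.61), and PCGF1 lay on 0 of the 212 (interval 0 to 1.72) and within 1000 bp of 0. They were wider than the class as a whole, with a median of 827.5 bp, and width went with more PCGF1 over the class. Their median distance to the nearest PCGF1 peak was 399154 bp and the smallest 2601 bp. In the same fold range the median was 305388 bp for flanking peaks and 394354 bp for short peaks on H3K27me3. Between folds of 4 and 5, PCGF1 lay on 5 of 542 short far peaks (0.923%, 0.300 to 2.14). Between 3.5 and 4 it lay on 33 of 883 (3.74%, 2.59 to 5.21). Below that it lay on 58 of 1867 between 3 and 3.5 (3.11%, 2.37 to 3.998) and on 12 of 784 between 2.5 and 3 (1.53%, 0.793 to 2.66). From a fold of 2.5 the share of the short far peaks thus went up to the range of 3.5 to 4 and was lower above it. Flanking peaks and short peaks on H3K27me3 had the same rise and fall over fold, so that shape was not particular to the far peaks. Their shares were 2.02% and 2.12% between folds of 2.5 and 3, and 6.02% and 9.18% between 3.5 and 4. Between 4 and 5 they were 5.03% (3.44 to 7.07) and 5.93% (2.42 to 11.8), above the share of the far peaks in that range. The same fold of 5 picked out 194 flanking peaks, of which 3 held PCGF1 (1.55%, 0.320 to 4.45), and 41 short peaks on H3K27me3, of which 1 did (2.44%, 0.0617 to 12.9). Among RING1B peaks wider than 2000 bp the share went up through all ranges from a fold of 2.5, and so did their median width. PCGF1 lay on 200 of the 485 wide peaks with a fold of at least 5 (41.2%, 36.8 to 45.8) and on 8.22% (7.07 to 9.49) of those with a fold from 3 to 3.5. Their median widths were 6942 bp at a fold of at least 5 and 2942 bp at a fold from 3 to 3.5. The wide peaks are thus not matched in length to the short ones or across fold ranges. Over the whole RING1B list, 204 of 932 peaks with a fold of at least 5 held PCGF1 (21.9%), and 200 of these 204 were wide. The fold ranges were set after the values had been seen.

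A few short far peaks had a very low fold, and there PCGF1 was frequent. RING1B fold was under 2.5 in 23 of the 4311 peaks, and 9 of these held PCGF1 (39.1%, 19.7 to 61.5); in the whole RING1B list it was 43 of 112. The 9 peaks had a median fold of 2.19 with a median -log10 q of 4.45. The PCGF1 peaks on them had a lower median fold and a higher median -log10 q than the others: these medians were 3.07 and 6.09, against 4.77 and 1.88 for the 118 PCGF1 peaks on short far peaks of higher fold. Single sites varied: the -log10 q of the 9 RING1B peaks went from 1.36 to 10.9, and the PCGF1 peaks on them had folds from 2.06 to 5.66 and a -log10 q from 1.41 to 14.0. Without them and the other peaks of fold under 2.5, a choice made once the values were known, the short far peaks held PCGF1 in 108 of 4288 cases (2.52%, 2.07 to 3.03).

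**Figure D3:**
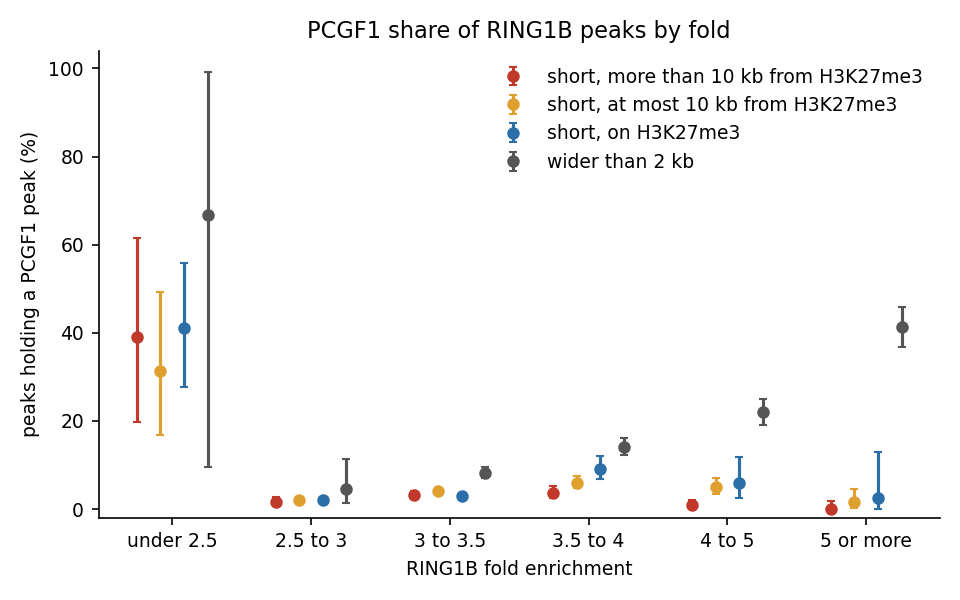
Share of RING1B peaks that hold a PCGF1 peak, in percent, by deposited RING1B fold, for short peaks more than 10 kb from H3K27me3 (red), at most 10 kb from it (orange) and on it (blue), and for peaks wider than 2 kb (grey); bars are exact 95% binomial intervals. At a fold of 5 or more the red point is at 0 of 212 peaks (median width 827.5 bp) and the grey point at 41.2% of 485 (median width 6942 bp). The wide class holds 3 peaks under a fold of 2.5.

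PCGF1 peaks on the short far peaks were narrow. There were 127 of them on 117 RING1B peaks, 4.94% of the 2569 PCGF1 peaks: 107 RING1B peaks held 1 and 10 held 2. Their median width was 180 bp (161 to 206), against 213 bp on flanking peaks, 333.5 bp on short peaks on H3K27me3 and 224 bp in the whole PCGF1 list. Their median PCGF1 fold was 4.76 (4.67 to 4.81), close to the 4.79 of the list, and their median -log10 q was 1.89. Of the 127, 91 lay wholly inside the RING1B peak and 11 were wider than it. The centres of the paired peaks were a median of 186 bp apart (interquartile range 70.25 to 383.25), and 70 of the 127 PCGF1 centres fell in the middle 50% of the RING1B peak. The PCGF1-bearing RING1B peaks were wider than the other short far peaks (medians 979 and 508 bp), had nearly the same median fold (3.30 and 3.32) and lay about as far from H3K27me3 (18972 and 19704 bp). They stood farther from the next RING1B peak, at a median of 25716 bp (21372 to 34961) against 12972 bp (12265 to 13462). The gaps of other RING1B classes were not split by PCGF1.

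Read from the side of PCGF1, 364 of its 2569 peaks (14.2%) lay more than 10000 bp from H3K27me3. Of these 364, 127 (34.9%) were on a short far RING1B peak, 95 (26.1%, 21.7 to 30.9) on a RING1B peak wider than 2000 bp, 9 on another RING1B peak, and 133 (36.5%, 31.6 to 41.7) on none. The 133 without RING1B had a median width of 155 bp (131 to 170), and those on short far peaks one of 180 bp (161 to 206).

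The short far peaks stood more apart than other RING1B peaks. The median gap to the nearest other RING1B peak was 13082 bp (12531 to 13780; interquartile range 3824.25 to 35407.5). It was 8630 bp for flanking peaks, 1962 bp for short peaks on H3K27me3, 1604.5 bp for peaks wider than 2000 bp and 4453 bp over the whole list. Another RING1B peak lay within 5000 bp of 1255 short far peaks (29.1%, 27.8 to 30.5), against 40.3% (39.2 to 41.3) of flanking peaks and 67.1% (66.0 to 68.2) of short peaks on H3K27me3. No other RING1B peak lay within 50000 bp of 740 (17.2%, 16.1 to 18.3), against 15.9% (15.1 to 16.7) of flanking peaks and 12% of all RING1B peaks. The intervals of the far and the flanking peaks overlapped there. Beyond 50000 bp the curves of the far and the flanking peaks ran together, with 93.0% and 92.9% having a neighbour within 100000 bp. The smallest gap between any RING1B peaks was 661 bp, so closer signals do not appear as separate peaks in this list.

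**Figure D4:**
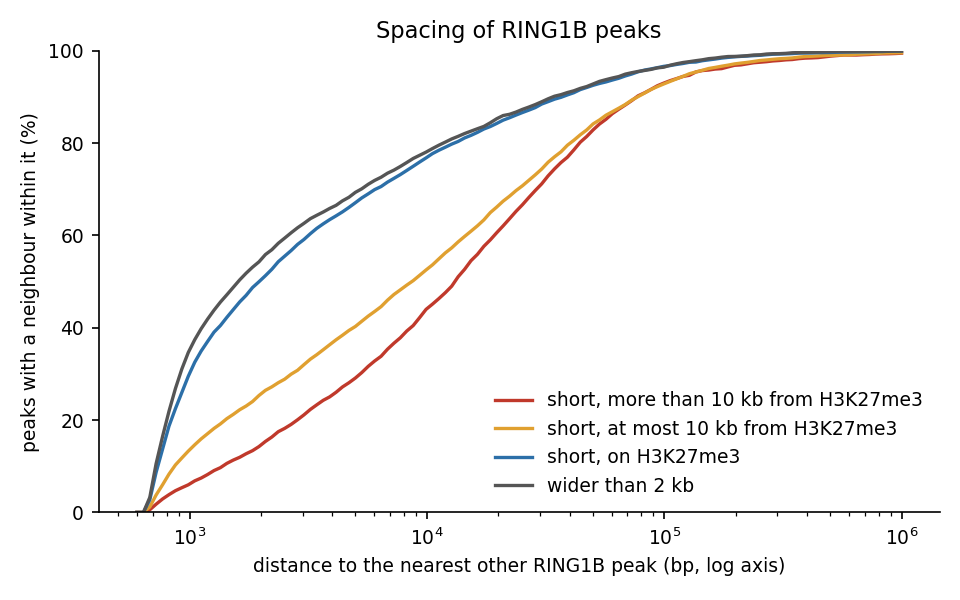
Percent of RING1B peaks that have another RING1B peak within the distance on the logarithmic horizontal axis (bp, edge to edge), for the 4 classes of peaks. At 5000 bp the curve of the short far peaks (red) stands at 29.1%, below the flanking peaks (orange, 40.3%) and the short peaks on H3K27me3 (blue, 67.1%).

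Neighbours of the short far peaks were mostly of their own kind. The nearest RING1B peak was itself a short far peak in 2508 of 4310 cases (58.2%, 56.7 to 59.7), a flanking peak in 27%, a peak wider than 2000 bp in 8.65% and a short peak on H3K27me3 in 6.17%. Peaks close to each other have similar gaps to H3K27me3, so the rule bears on the first share. Few lay beside a broad RING1B domain: 289 (6.70%, 5.98 to 7.49) had a peak wider than 2000 bp within 10000 bp, and 77 (1.79%) one wider than 5000 bp. The rule bears on these shares and on the 8.65% as well. Of the 4796 RING1B peaks wider than 2000 bp, only 266 lay more than 10000 bp from H3K27me3. Shares with a broad neighbour were not counted for the other classes. Those 289 had a lower median fold than the rest, 3.16 (3.13 to 3.21) against 3.34 (3.32 to 3.36), and 4 of them held PCGF1 (1.38%, 0.378 to 3.51), against 113 of 4022 others (2.81%, 2.32 to 3.37), with overlapping intervals. PCGF1 was found on 21 of 1255 short far peaks with a RING1B neighbour within 5000 bp (1.67%, 1.04 to 2.55), on 2.72% (2.10 to 3.47) of those whose neighbour lay 5000 to 50000 bp away, and on 33 of the 740 with none within 50000 bp (4.46%, 3.09 to 6.21). The median widths of these groups were 554, 508 and 509 bp and their median folds 3.30, 3.35 and 3.31, with the crowded peaks the widest. This split by neighbour distance was not made for other RING1B peaks, so the shares are not shown to be particular to the short far peaks.

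When peaks at most 10000 bp apart were joined, the 4311 short far peaks formed 3413 runs. A run of 1 peak was the rule, with 2753 cases; 486 runs held 2 peaks and 174 held 3 or more, and 36.1% of the peaks were in a run of at least 2. The longest runs held 8 peaks. One, at chr16:81841311-81855324, fitted 8 peaks of 165 to 1404 bp into 14014 bp, with a median gap of 718 bp and folds from 2.95 to 3.58. The next, at chr13:23646909-23685438, spread 8 peaks of 327 to 1505 bp over 38530 bp, with a median gap of 5178 bp and folds from 2.88 to 3.79, and its peaks lay 40612 to 64588 bp from H3K27me3. The third, at chr16:37144896-37161179, held 7 peaks in 16284 bp with folds from 2.94 to 3.51. None of the 3 runs held a PCGF1 peak; the nearest lay 3264 kb, 1833 kb and 929 kb away. The smallest gap in the first run, 677 bp, was close to the 661 bp that was smallest in the list.

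H3K27me3-free stretches held the short far peaks thinly. The median gap to H3K27me3 was 19673 bp (interquartile range 13906 to 30071.5), and the median distance between the H3K27me3 regions on either side was 68150 bp. Sequence more than 10000 bp from any H3K27me3 region fell into 28406 stretches, of which 2695 (9.49%) held a short far peak and 1751 held exactly 1; the fullest held 11. Of the 5445 stretches of at least 50 kb, 1033 (19.0%) held one. On the 19 autosomes such sequence made up 870 Mb, 36.0% of the span between the first and last listed base, and held 4292 short far peaks, 4.93 per Mb. The span includes unsequenced gaps, which count as free of H3K27me3.

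The X chromosome and chromosome 19 stood apart. X held 16 short far peaks among its 624 RING1B peaks (2.56%, 1.47 to 4.13), against 10.8 to 23.1% on the autosomes. The share moved with the limits on X and on the autosomes alike. It was 7.53% on X and 19.2 to 34.0% on the autosomes with a gap above 5 kb, and 0.962% and 4.66 to 12.2% with a gap above 20 kb. With the taller 50% of H3K27me3 regions it was 7.69% on X and 20.3 to 37.5% on the autosomes. Only 11.9% of X lay more than 10000 bp from H3K27me3. Per Mb of that sequence X held 0.824 short far peaks, against 3.13 (chromosome 3) to 9.43 (chromosome 19). Among assembled chromosomes, RING1B peaks of all classes were also sparsest on X (624 over 163.6 Mb) and densest on chromosome 19 (1074 over 58.3 Mb). X carried 82.8 H3K27me3 regions per Mb, the highest density of the assembled chromosomes. Chromosome 19 held the most short far peaks per far Mb of the autosomes, although it had the lowest share of far sequence among them. Of its span, 21.1% was far from H3K27me3, and its 116 short far peaks made up only 10.8% (9.01 to 12.8) of its RING1B peaks. It had the highest PCGF1 share, 10 of 116 (8.62%, 4.21 to 15.3), followed by chromosome 8 with 9 of 179 (5.03%, 2.32 to 9.33). On chromosome 18, 0 of 145 held PCGF1 (0 to 2.51), and on X 0 of 16 (0 to 20.6). Over all RING1B peaks, the PCGF1 share was 12.7% on chromosome 8, 9.12% on chromosome 19, 6.34% on chromosome 18 and 1.12% on X.

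**Figure D5:**
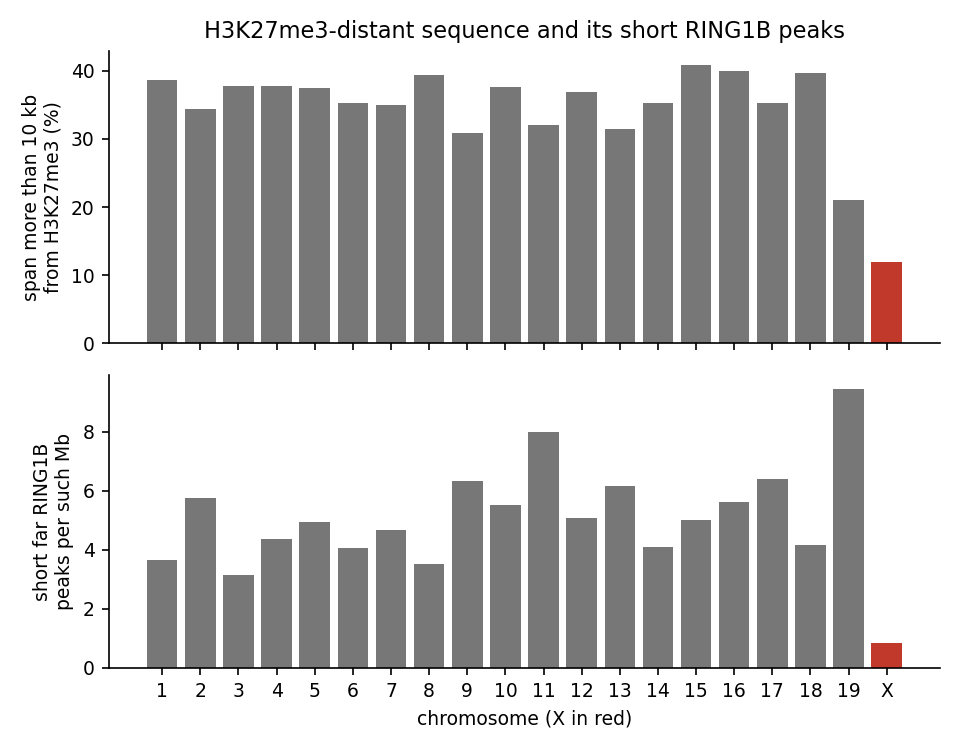
Upper bars give the percent of each chromosome's span that lies more than 10 kb from H3K27me3 regions, and lower bars the number of short far RING1B peaks per Mb of that sequence, with X in red. X is lowest in both, at 11.9% and 0.824 per Mb, and chromosome 19 is highest in the lower bars, at 9.43.

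Among the 8 short far peaks of highest fold, from 8.27 to 18.4, 7 were under 1000 bp wide and 0 held PCGF1. The strongest, chr9:55053720-55054249, was 530 bp wide with a fold of 18.4 and a -log10 q of 74.7. It lay 16399 bp from H3K27me3 on one side and 16861 bp on the other, 2042 bp from a RING1B peak of 170 bp and fold 4.21, and 55945 bp from the nearest PCGF1 peak. The next, chr17:56339319-56339620, was 302 bp wide with a fold of 10.3. Then came chr5:148339426-148339949 (524 bp, fold 9.28) and chr9:19379767-19380067 (301 bp, fold 9.06). The latter was isolated, with its nearest RING1B peak 951424 bp away. The others were chr15:74736403-74737439 (fold 8.91), chr4:128658150-128659071 (fold 8.85), chr11:24999964-25000316 (fold 8.50) and chr12:115783075-115783916 (fold 8.27). In 5 of the 8 the nearest RING1B peak was another short far peak, of 170 to 347 bp and fold 2.99 to 4.21. All 5 neighbours were narrower than the class median of 517 bp, and 3 of the 5 had a fold above its median of 3.32.

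The members farthest from H3K27me3 were of ordinary width and, with 1 exception, above-median fold. The peak at chr11:36725003-36725305 (303 bp, fold 4.52) lay 204995 bp from the nearest region, in an interval of 430830 bp between regions. A pair at chr10:17204737-17205581 (845 bp, fold 4.85) and chr10:17241747-17242205 (459 bp, fold 4.48) shared one interval of 361840 bp. The peak at chr11:34440601-34441023 (423 bp, fold 4.75) lay 1725 bp from a RING1B peak of 2430 bp and fold 7.04, so its neighbour was the stronger site. The exception was chr6:99213947-99214687, with a fold of 2.85 and a gap of 151253 bp.

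The short far peaks under the strongest PCGF1 peaks had moderate RING1B folds. The highest PCGF1 fold, 5.89, was at chr15:85501380-85502796, a PCGF1 peak of 1417 bp that spanned the RING1B peak chr15:85501425-85502424 (1000 bp, RING1B fold 3.74). The next, of PCGF1 fold 5.71, was 137 bp wide inside the RING1B peak chr15:5191451-5193139 (1689 bp, RING1B fold 3.45), which held 2 PCGF1 peaks. At chr2:20820962-20821901 a PCGF1 fold of 5.66 with a -log10 q of 14.0 met a RING1B fold of 2.42, one of the 9 low-fold overlaps above. The remaining 5, from chr5:65194449-65195546 (PCGF1 fold 5.58, RING1B fold 3.70) to chr6:86682847-86683302 (5.28 and 3.09), had RING1B folds from 2.86 to 3.70. The highest RING1B fold of any short far peak with PCGF1 was 4.98, at chr16:59599956-59600883, where the PCGF1 fold was 4.51.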

How the data were processed

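The 3 peak lists used here each stand for 2 libraries, per the labels; whether reads were pooled before calling is not stated. The submitters' processing notes name Bowtie2, SAMtools 1.6.0 and Picard and the builds mm9 and dm3. Caller, threshold and control of the lists are not given in these sources. Positions on chromosome 1 reach 197194960 and are read as mm9. In the broadPeak lists the authors deposited a fold (a ratio over the background of the caller), a -log10 q and a score; the score followed from the -log10 q in all 24987 RING1B peaks. The deposited H3K27me3 list has a signal height, with an unstated scale and a lowest value of 40, used to pick its taller regions. All are the authors' values per peak.

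Gaps were measured edge to edge, and overlap meant at least 1 bp shared. RING1B and PCGF1 positions are printed 1-based; whether the H3K27me3 list counts from 0 is not stated, so a gap can be off by 1 bp. Shares at the width make-up of the short far peaks weight 4 width ranges (limits 250, 500, 1000 and 2000 bp) by their share of those peaks. Python 3.11.15, pandas 2.3.3, NumPy 2.4.6 and SciPy 1.17.1 were used, and the interval functions were tested on simulated data. No test was made, since the lists hold no value per library; depth is unknown. Named sites are the 8 short far peaks of highest fold, the 5 with the widest gap, the 8 with the highest PCGF1 fold, the 3 runs with the most peaks and 3 peaks on each side of a limit; the short far peak with PCGF1 of highest RING1B fold was named after its value was seen. The peaks, limits and lists were chosen with earlier results of these data known. Alternatives were other overlap rules, width and gap limits, the stronger 50% of each list, autosomes alone, no chromosome 8 and, added after seeing the data, no RING1B peaks of fold under 2.5.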

Additional observations from a re-analysis of the deposited data

How the results depend on the processing

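Over 10 summary values and 11 settings there were 92 alternative values: 64 stayed within the interval of the value reported or within 1.5 times of a count, 26 moved beyond it and 2 changed sign. For the differences in PCGF1 share that interval is the counting error of the short far peaks' share alone. The cause was not tested, apart from what a limit does by construction. The difference in PCGF1 share from short peaks on H3K27me3, at equal widths, changed sign from -0.407 to 0.0663 points with the taller 50% of H3K27me3 regions and to 0.285 with a gap above 5 kb. It was -0.962 with the PCGF1 peaks in the higher 50% by -log10 q and -4.86 with the RING1B peaks in the higher 50%. The difference from flanking peaks, -1.02 points, was -0.134, -0.0959 and -2.39 with the taller H3K27me3 regions, the 5 kb gap and the stronger RING1B peaks.

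The number of short far peaks, 4311, was 7163 with the taller H3K27me3 regions, 6607 with a gap above 5 kb, 2121 with a gap above 20 kb and 2593 with the stronger RING1B peaks. Their PCGF1 share, 2.71%, was 3.32% with the taller regions, 3.44% with the 5 kb gap, 1.75% with widths up to 1 kb, 1.28% with the stronger PCGF1 peaks and 3.67% with PCGF1 within 1 kb. Median fold, 3.32, was 3.29, 3.30, 3.37, 3.65 and 3.29 with the taller regions, the 5 kb gap, the 20 kb gap, the stronger RING1B peaks and widths up to 1 kb. With the stronger RING1B peaks, median width was 586 bp and the median gap to another RING1B peak 22363 bp; with widths up to 1 kb, median width was 437 bp. The PCGF1 peaks on short far peaks had a median width of 219 bp with the stronger PCGF1 list. Short far peaks made up 2.56% of the RING1B peaks of X. This was 7.69%, 7.53% and 0.962% with the taller regions, the 5 kb gap and the 20 kb gap.

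No paired analysis was possible because the lists give 1 value per peak for their 2 libraries together; for the same reason no replicate was left out. The unknown depth limits which weak peaks were called, and a missing PCGF1 peak is not a measured absence of PCGF1.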
